A study of Homo sapiens with 4 samples.

Results

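Scavenger receptors and the endocytic receptor LRP1 were followed in THP1 cells given extra miR-511-5p. The 10 genes were LRP1, CD36, MSR1, CD163, SCARB1, SCARB2, STAB1, MARCO, OLR1 and COLEC12, out of 27193 gene names on the array. All non-control probes carrying one of these names were taken, which gave 13 of 34127 probes. THP1 is an established human monoblastic line from an acute monocytic leukemia. In each of 2 independent experiments, 1 culture was transfected with 30 nM miR-511-5p mimic, a synthetic precursor that supplies the mature miRNA, and 1 with 30 nM negative control mimic #1. All 4 cultures were kept in low-serum medium with albumin and lysed on day 2, and the RNA was hybridized with a single dye to Agilent whole genome arrays. A single cell line, forced delivery of the miRNA and 2 arrays per treatment limit what these samples can represent.

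Scavenger receptors are structurally unrelated membrane proteins that take up modified lipoproteins, dead cell remnants and microbial surface molecules. Monocytes gain most of them as they mature into macrophages. LRP1 belongs to the LDL receptor family. It is synthesized as a precursor, guided through the secretory pathway by the chaperone LRPAP1, cleaved by furin into an extracellular and a membrane-spanning chain, and takes up protease-inhibitor complexes, apolipoprotein E and calreticulin-coated dead cells. The gene of miR-511 lies in an intron of the mannose receptor gene, which encodes another endocytic receptor of macrophages. A miRNA mostly lowers transcripts that pair with its seed, and indirect effects can run in either direction.

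The sequence of the mature miRNA delivered by the mimic is shown with its seed, bases 2 to 8, in capitals, as given by RefSeq for GRCh38.p14 at chr10:17845122-17845142 on the plus strand.
hsa-miR-511-5p: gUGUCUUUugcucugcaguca
The probes are 60 bases long and in the sense orientation of the transcript. Those of LRP1 are shown because they gave different answers, and those of CD36 and MARCO as examples of expressed receptors for lipid and particle uptake.
LRP1 5′ probe, chr12:57539213-57539272, plus strand, hg19: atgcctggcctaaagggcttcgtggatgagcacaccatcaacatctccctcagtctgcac
LRP1 3′ probe, chr12:57605946-57606005, plus strand, hg19: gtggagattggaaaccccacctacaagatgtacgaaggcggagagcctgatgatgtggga
CD36 probe, chr7:80302711-80303343, plus strand, across an intron, hg19: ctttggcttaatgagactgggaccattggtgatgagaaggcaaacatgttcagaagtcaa
MARCO probe, chr2:119751977-119752036, plus strand, hg19: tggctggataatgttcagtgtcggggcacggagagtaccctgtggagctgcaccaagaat
By the annotation in the files, the LRP1 5′ probe starts at base 1246 and the 3′ probe at base 13861 of the transcript. The 5′ probe is annotated to further, shorter Ensembl transcripts besides the full-length mRNA. Their GC contents were alike, 55% for the 5′ probe and 53.3% for the 3′ probe, above the median of 43.3% over all probes. None of the 13 member probes holds AAAGACA, the 7 bases that pair with the seed, searched in the probe sequence as printed. That motif occurs in 0.97% of all probes. The transcripts outside these windows were not searched.

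Detection differed little between the arrays. The scanner flagged 64.8% to 69.3% of the probes on each array as well above background, by comparing a spot with its local background, and no spot was saturated. The 75th percentile of the processed intensity ranged from 1096 to 1351 units and was lowest on the miR-511 array of experiment 1. The label of a monocytic line was borne out by CD33, CD4, CSF1R, ITGB2, MPO, PTPRC and SPI1, all well above background on all 4 arrays. Of 5 genes with a probe that were listed as macrophage markers, CD14 was well above background on all 4 arrays, MERTK on 1, and C1QA, C1QB and FCGR3A on none. Among markers of other lineages, CD79A, CD3D, KRT8 and HBB were detected on all 4 arrays, whereas MS4A1, EPCAM, COL1A1 and COL1A2 were not detected on any. The summed macrophage marker level was 6.96 and 7.09 with miR-511 and 6.79 and 6.98 with the control mimic on the log2 scale, so the treatments overlapped. Within the experiments it was higher with miR-511, by 0.17 and 0.11. CD14, at a mean of 6.72, stood far above the other macrophage markers, of which C1QA was highest at 2.76, so this sum mostly followed CD14. The study used CD14+ cells as its primary monocytes, so the sum is not specific to macrophages. Corresponding differences were 0.098 and 0.097 for B cell markers, and 0.020 and 0.026 for monocytic ones. They were 0.045 and 0.018 for epithelial and fibroblast markers, -0.17 and 0.12 for T cell markers, and -0.060 and 0.41 for erythroid markers. The part of any of these in the receptor values was not tested.

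Transcripts of 5 of the 10 genes were detected in THP1 cells. SCARB1, SCARB2, CD36, MARCO and LRP1 each had a probe that was well above background on all 4 arrays. Counted by probes this was 5 of 13, beside 63.3% of all probes on the array. For CD163, COLEC12, MSR1, OLR1 and STAB1, none of the 7 probes was well above background, on any of the arrays. The remaining probe, the 3′ probe of LRP1, passed on 1 array. Levels are given as log2 of the quantile normalized processed signal, and are ranked only against all probes of the array, since probes differ in their response. SCARB1 was at the 98.7th percentile of all probes, SCARB2 at the 89.9th, CD36 at the 78.2nd, MARCO at the 72.5th, and the 5′ probe of LRP1 at the 34.5th.

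**Figure D1:**
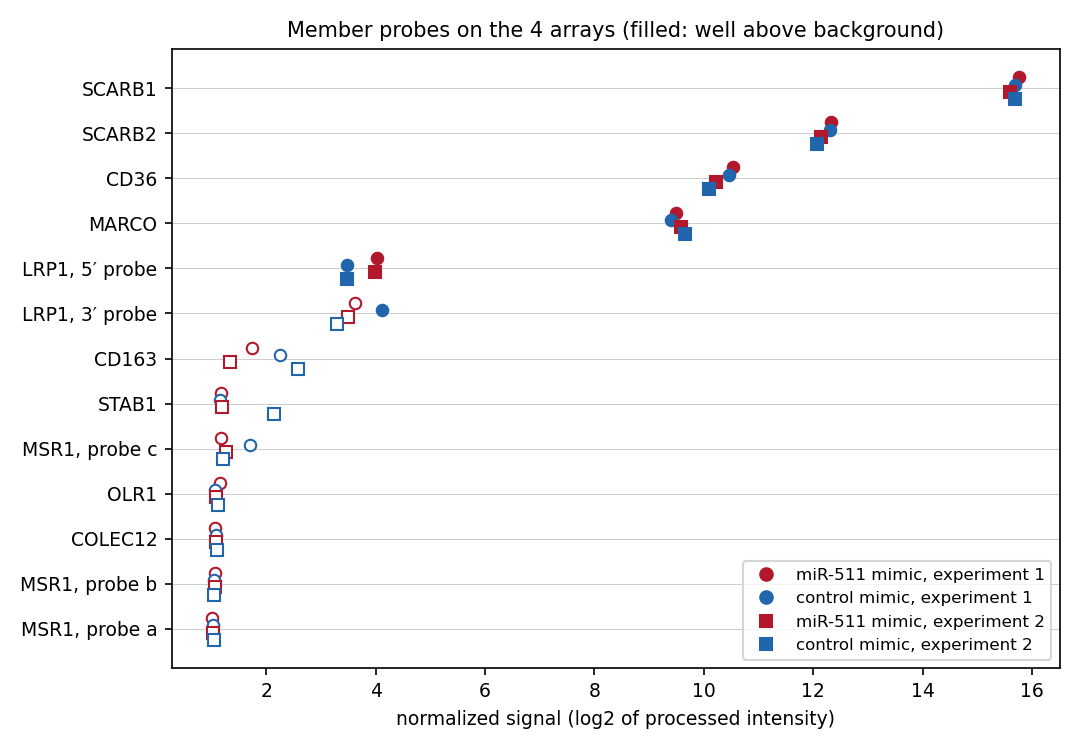
Normalized log2 signal (x axis) of the 13 member probes (y axis, in order of their mean) on each of the 4 arrays. Color gives the treatment, shape the experiment, and filled symbols mark arrays on which the probe was well above background. SCARB1, SCARB2, CD36, MARCO and the LRP1 5′ probe are filled throughout, the LRP1 3′ probe on 1 array and the other 7 probes on none.

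Of the 5 tested genes, only LRP1 passed the threshold used here, an unadjusted p below 0.05 in limma's moderated test. This is the first part of the study's criterion, and its further condition over identical replicate probes was not applied. It was higher with miR-511. Over the whole array, 2.20% of the 22638 tested probes passed, and counted by the brightest probe of each gene, 1.23% of 18001 genes were higher and 0.889% lower. Among the 498 probes that passed, 42.4% were lower with miR-511, against 54.8% with scaling to the 75th percentile. With the experiment as a replicate block, 894 probes passed and LRP1 was still the one member among them. No probe passed the same threshold after Benjamini-Hochberg adjustment in limma, where the smallest adjusted p was 0.79. An exact permutation test of 2 arrays against 2 cannot go below p = 0.333. A lower signal in bulk RNA can come from fewer cells of a type or from less RNA per cell, which cannot be told apart here.

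LRP1 gave a small difference at its 5′ probe, and the opposite sign at its 3′ probe in experiment 1. The normalized log2 signal of the 5′ probe was 4.03 with miR-511 and 3.47 with the control mimic in experiment 1, and 3.98 and 3.48 in experiment 2. The treatments did not overlap, with differences of 0.56 and 0.50. In limma's fit the log2 difference was 0.53 (SE 0.090, 95% interval 0.28 to 0.78, unadjusted p = 0.00371, adjusted p = 1.00, n = 2 per treatment), a fold of 1.44. The difference was larger in size than at 96.7% of the tested probes, where the median size was 0.079. That rank is over probes of all levels, and spot error was larger at this low level. The expected SD of a difference between single spots was 0.525 here, against 0.077 to 0.091 at the levels of the other tested members. LRP1 also stands in a list of cancer genes which the study drew from these same arrays, so that its presence there is not independent evidence.

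The 5′ probe was close to the detection limit on every array. Its single spot gave processed intensities of 13.9 ± 2.50 with miR-511 and 12.6 ± 2.29 units with the control mimic in experiment 1 (± scanner error of the spot). In experiment 2 it gave 17.0 ± 2.84 and 10.8 ± 2.40 units. Before normalization the difference was thus 1.25 units in experiment 1, which was 0.368 of its combined scanner error of 3.39, and 6.15 units in experiment 2, which was 1.65 times its error of 3.72. The close agreement of the log2 differences, 0.56 and 0.50, thus came with the quantile normalization. With scaling to the 75th percentile instead, they were 0.39 and 0.54. The lowest normalized log2 value of any probe well above background was 3.44, 2.98, 3.33 and 3.37 on the miR-511 and control arrays of experiment 1 and those of experiment 2, so of the control values of 3.47 and 3.48 the second stood just over it.

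Probes printed 10 times on each array gave a second measure of this error. Among them, probes within 0.5 log2 units of the level of the 5′ probe had a median SD between spots of 0.371, which for a difference between 2 single spots amounts to an SD of 0.525. The differences of 0.56 and 0.50 at LRP1 were therefore about as large as the spot error expected at this signal. The SD between the 2 arrays of a treatment was smaller, 0.035 with miR-511 and 0.0079 with the control mimic. From this spread alone, a plain equal-variance comparison gave an SE of 0.025. Moderation by the spread of all tested probes raised it to 0.090 in the fit. With a variance that was allowed to depend on intensity, limma gave the same difference with SE 0.23 (95% interval -0.055 to 1.11, unadjusted p = 0.0671), which no longer passed.

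The 3′ probe of LRP1, printed 10 times, was not tested, because it was well above background on both arrays of neither treatment. Its mean normalized log2 signal was 3.63 with miR-511 and 4.12 with the control mimic in experiment 1, and 3.49 and 3.29 in experiment 2. The control array of experiment 1 was the highest of the 4, and the treatments overlapped. The flag was set at 9 of 9 usable spots on that array, at 5 of 10 on each miR-511 array and at 2 of 10 on the control array of experiment 2. The difference was -0.50 (SEM 0.28, from the spots) in experiment 1 and 0.21 (SEM 0.24) in experiment 2. Fitted without the filter, this probe had a log2 difference of -0.15 (SE 0.34, limma, unadjusted p = 0.696).

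Without the control array of experiment 2, the 3′ probe would enter the tested set through the control array of experiment 1 alone, where it was highest. A lower value with miR-511 is then favored by the filter, so it is not given as a result. The mean of both probes, an alternative chosen after the values were seen, was 3.83 and 3.74 with miR-511 and 3.80 and 3.39 with the control mimic. It gave a log2 difference of 0.19 (SE 0.17, 95% interval -0.28 to 0.66, limma, unadjusted p = 0.323). 

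**Figure D2:**
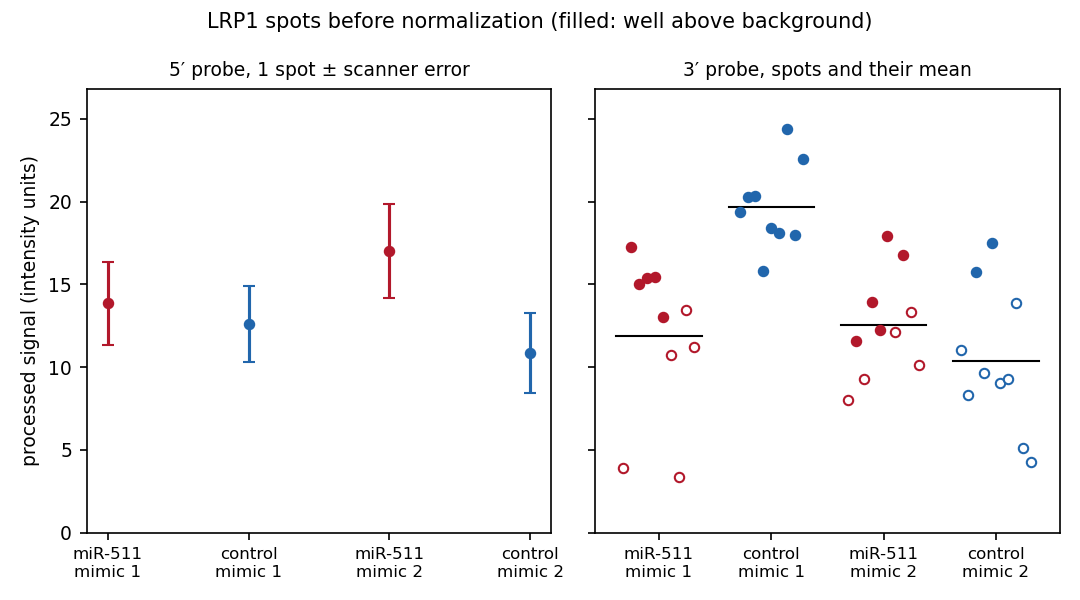
Processed intensity before normalization (y axis, linear) of the spots of the LRP1 5′ probe (left, 1 spot per array, bars are the scanner error) and 3′ probe (right, spots with their mean as a line) on the 4 arrays (x axis). Filled symbols are well above background. The 5′ spots lie between 10.8 and 17.0 units, their error bars overlap between treatments in experiment 1 and not in experiment 2, and the highest 3′ mean, 19.7 units, belongs to the control array of experiment 1.

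CD36, a class B receptor for long-chain fatty acids and oxidized LDL, was expressed and showed no difference past the threshold. Its probe was printed 10 times, and 9 or 10 usable spots per array were all well above background. The normalized log2 signal was 10.53 with miR-511 and 10.46 with the control mimic in experiment 1, and 10.22 and 10.10 in experiment 2. Both arrays of experiment 1 exceeded both of experiment 2, and within each experiment the miR-511 array was the higher. The differences were 0.065 (SEM 0.028 from the spots) and 0.13 (SEM 0.029), each above the error of its spots. Over both experiments the log2 difference was 0.096 (SE 0.19, 95% interval -0.42 to 0.61, unadjusted p = 0.635 in limma). The direction in experiment 1 came with the scaling between arrays, since the mean intensity before it was 1299 units with miR-511 and 1471 with the control mimic. In experiment 2 the intensities were 1299 and 1100 units.

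SCARB1 and SCARB2, the other class B receptors, were the brightest members. SCARB1, the HDL receptor that exchanges cholesteryl esters, was measured at chr12:125262225-125262284 on the minus strand. Its log2 signal was 15.77 with miR-511 and 15.69 with the control mimic in experiment 1, and 15.60 and 15.69 in experiment 2. The difference was 0.080 in experiment 1 and -0.087 in experiment 2, against a spot error of 0.077 for a difference at this level. The treatments overlapped, and limma gave -0.0032 (SE 0.11, 95% interval -0.29 to 0.28, unadjusted p = 0.977).

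SCARB2, a membrane protein of lysosomes, was measured at chr4:77079916-77079975 on the minus strand. Its log2 signal was 12.33 and 12.30 with miR-511 and control mimic in experiment 1, and 12.14 and 12.06 in experiment 2. As with CD36, the experiments differed more than the treatments, and the differences of 0.033 and 0.071 were below the spot error of 0.086. The fitted difference was 0.052 (SE 0.14, 95% interval -0.33 to 0.43, limma, unadjusted p = 0.726).

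MARCO, a class A receptor with a collagenous stalk that binds bacteria and inhaled particles, was the one class A member detected. The normalized log2 signal was 9.50 with miR-511 and 9.41 with the control mimic in experiment 1, and 9.58 and 9.65 in experiment 2. The control arrays were both the lowest and the highest of the 4. The differences were 0.090 and -0.071, against a spot error of 0.090, and the fitted difference was 0.0095 (SE 0.12, 95% interval -0.33 to 0.35, limma, unadjusted p = 0.942). For CD36, SCARB1, SCARB2 and MARCO the unadjusted 95% intervals ended at -0.42 and 0.61 or closer to 0. Changes within these bounds could not be resolved with 2 arrays per treatment by this fit, which has no term for the experiment. With the experiment as a replicate block the SE was smaller, 0.079 for CD36, 0.091 for SCARB1, 0.078 for SCARB2 and 0.090 for MARCO. None of the 4 passed the threshold there either.

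**Figure D3:**
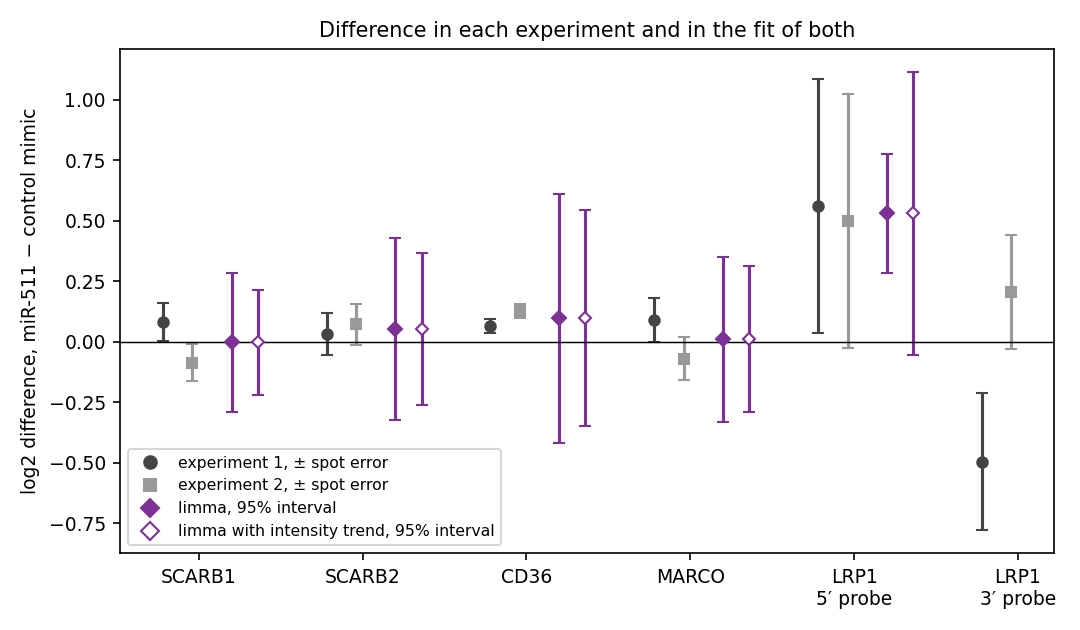
Log2 difference, miR-511 minus control mimic (y axis), at the 5 tested probes and the LRP1 3′ probe (x axis). Circles and squares are experiments 1 and 2, with the SEM of the difference from the spots (CD36 and the LRP1 3′ probe) or the SD expected for single spots of that signal (the others). Filled and open diamonds are limma's fits with their 95% intervals, without and with an intensity trend, and only the filled one of the LRP1 5′ probe, 0.28 to 0.78, lies clear of 0.

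The other class A members and OLR1 were not detected. MSR1, the macrophage receptor for acetylated LDL, had 3 probes with intensities of 1.85 to 3.41 units. COLEC12, a scavenger receptor with a C-type lectin domain, was at 1.93 to 2.31 units and OLR1, the lectin-like receptor for oxidized LDL, at 1.91 to 2.31. All values of COLEC12 and OLR1 were surrogates, the floor which the scanner software writes for spots at or below background, so no difference can be given for them.

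CD163, the receptor for haptoglobin-hemoglobin complexes, lay between the floor and the detection limit. Its spot at chr12:7623882-7623941 read 3.24 and 2.64 units with miR-511 and 5.58 and 5.89 units with the control mimic, with scanner errors of 2.21 to 2.70 per spot. Both miR-511 arrays were lower than both control arrays, and in neither experiment did the difference reach its combined scanner error (ratios -0.692 and -0.886). Since no array had it well above background, no fold is given. It passed the unadjusted threshold only when dim probes were tested as well. STAB1, an endocytic receptor of alternatively activated macrophages, was measured at chr3:52557683-52557742 and read 2.27 and 2.45 units with miR-511 and 2.06 and 4.25 units with the control mimic, of which only the last was not a surrogate.

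Genes around these receptors are described by lists of other scavenger receptors, the LDL receptor family, the chaperone, proteases and adaptors of LRP1, ligands of the receptors, and lipid handling downstream of uptake. At the brightest probe, no gene of any list passed the unadjusted threshold. The medians of the log2 difference are read against 0.010 over all tested genes. Genes with the same direction in both experiments are counted per list, but their share over all tested genes was not counted. Over all tested probes the differences of the experiments had a correlation of 0.038. The counts are therefore not read as a shift of any list.

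Of 12 other scavenger receptors, 7 were tested, with a median of -0.094. In both experiments 3 were lower and 1 was higher. The largest difference was at SCARF1, an endothelial receptor for acetylated LDL, which had -0.33 (SE 0.22, limma, unadjusted p = 0.199). Its log2 signal was 5.42 and 5.52 with miR-511 and control mimic in experiment 1, and 4.86 and 5.43 in experiment 2. Much of the difference thus came from the miR-511 array of experiment 2.

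In the LDL receptor family, 12 of 13 genes were tested and had a median of 0.017, with 3 higher and 2 lower in both experiments. The largest difference, -0.25 (SE 0.15, limma, unadjusted p = 0.177), was at the brightest probe of LRP3, whose log2 signal was 12.01 and 12.42 with miR-511 and control mimic in experiment 1 and 12.37 and 12.45 in experiment 2. A dimmer probe of LRP3, at 7.61 and 7.21 in experiment 1 and 7.51 and 7.31 in experiment 2, moved the other way and passed the threshold (0.30, SE 0.10, limma, unadjusted p = 0.0373). LRP3 was thus another family member with probes of opposite sign, here both well above background on all 4 arrays.

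Among the chaperone, proteases and adaptors of LRP1, 11 of 12 genes were tested and the median was 0.074. In both experiments 6 were higher and 1 was lower. The largest difference was at MAPK8IP1, a scaffold of JNK signaling that binds LRP family tails, with 0.46 (SE 0.20, limma, unadjusted p = 0.084). Its log2 signal was 6.01 and 5.66 with miR-511 and control mimic in experiment 1 and 5.77 and 5.19 in experiment 2, so the treatments did not overlap. With the replicate block it passed the unadjusted threshold (SE 0.10, limma, unadjusted p = 0.022).

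Of 14 ligands, 9 were tested, with a median of 0.026, and 4 were higher and 3 lower in both experiments. Haptoglobin, HP, whose complex with hemoglobin is taken up by CD163, had the largest difference, 0.30 (SE 0.13, limma, unadjusted p = 0.084). Its log2 signal was 11.07 and 10.90 with miR-511 and control mimic in experiment 1 and 11.34 and 10.92 in experiment 2, higher with miR-511 in both. With normexp background correction it passed the unadjusted threshold (0.34, SE 0.087, limma, unadjusted p = 0.0122).

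For lipid handling, 14 of 15 genes were tested, with a median of 0.045, and 4 were higher and 3 lower in both experiments.

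**Figure D4:**
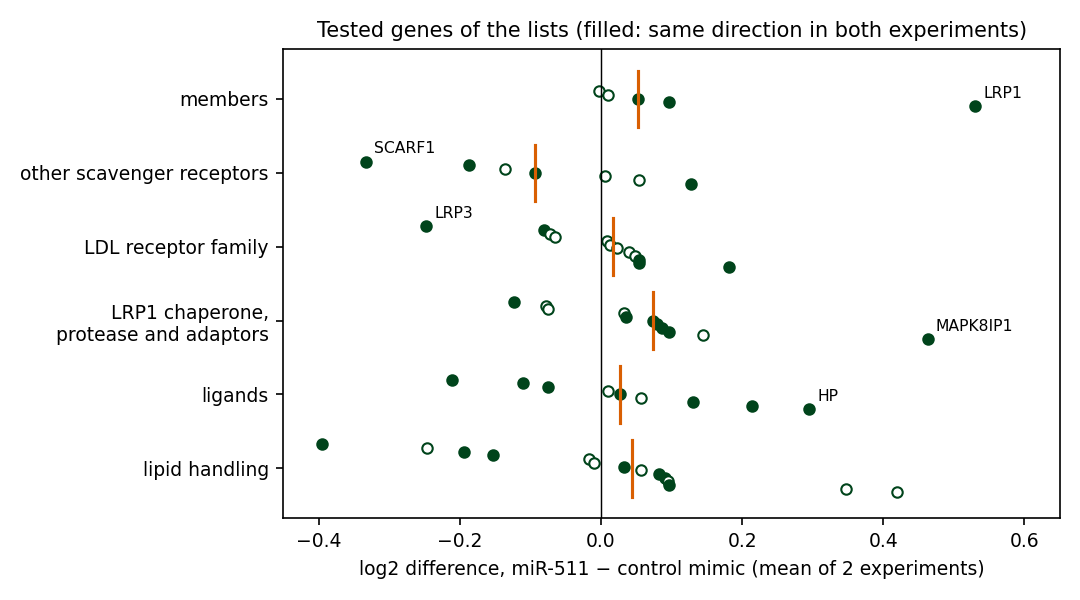
Log2 difference, miR-511 minus control mimic (x axis), of the tested genes at their brightest probe, for the members and 5 gene lists (y axis). Each point is a gene, filled where both experiments had the same direction, and vertical lines are medians, from -0.094 for other scavenger receptors to 0.074 for the LRP1 chaperone, proteases and adaptors. LRP1 at 0.53 lies to the right of all list genes, of which none passed the threshold.

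The genes with 4-array patterns most like that of the LRP1 5′ probe were CD248, KLHL2 and ZNF418, by the distance between log2 values centered on each gene's mean, out of 12090 genes detected on all 4 arrays and named in RefSeq. CD248, the stromal glycoprotein endosialin, was at a distance of 0.037 and had log2 values of 4.72 and 4.65 with miR-511 and 4.14 and 4.12 with the control mimic. KLHL2, a substrate adaptor of a ubiquitin ligase, was at 0.10, with 9.82 and 9.70 against 9.33 and 9.28. ZNF418, a zinc finger protein, was at 0.14, with 6.32 and 6.24 against 5.83 and 5.65. Their likeness chose them, so no test of their differences is given.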

How the data were processed

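THP1 cells with miR-511 mimic or control mimic were compared on single-dye Agilent arrays (2 experiments, 4 arrays, 1 slide, 1 array per treatment and experiment). The authors deposited a scanner file per array, whose processed intensity is background-subtracted and not scaled between arrays. The labels name Feature Extraction 10.5.1.1, the file headers 10.7.3.1. A second file deposited by the authors holds log2 values, and in it all arrays share 1 set of values, as quantile normalization leaves them. Probe coordinates are those of the files (hg19). The accessions of all 13 member probes matched RefSeq under the same symbol.

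Here, spots marked as outliers (232 to 301 per array) were left out, log2 processed intensities were quantile normalized over non-control spots, and spots of a probe were averaged. Tested probes were those with both arrays of miR-511, or both of the control mimic, well above background (for probes printed 10 times, on more than 50% of spots). This kept 66.3% of the probes. limma 3.58.1 in R 4.3.3 (lmFit and eBayes, 4.14 degrees of freedom) compared the treatments without a term for the experiment, as the study's methods name none. P-values are two-sided and adjusted over all 22638 tested probes. They rest on the spread between 2 cultures per treatment, moderated by that of all tested probes. Functions were tested on simulated data. Arrays hold no read depth, so their number and the signal over background limit the precision.

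The labels pair arrays by experiment. Same-numbered arrays deviated together from their treatment means (correlation 0.271 over probes), and the experiment as a block was an alternative. The members, gene lists and markers were chosen with earlier results of these data known. Named are all member probes, list genes past the threshold or else the gene with the largest difference in its list (for lipid handling not reported here), and the 3 genes most like LRP1. The dimmer LRP3 probe was named after its values were seen. Of the marker lists, 1 monocytic and 1 macrophage marker had no probe under its symbol and were not analysed here. Alternatives were scaling to the 75th percentile, normexp correction of the background with an offset of 50, 2 other filters on dim probes, marked spots kept, the deposited table, the block, an intensity trend, a plain equal-variance comparison of averaged probes (the study's own further condition, over identical replicate probes, was not run), leaving out each array, and, added after the values were seen, the mean of both LRP1 probes.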

Additional observations from a re-analysis of the deposited data

How the results depend on the processing

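Over 13 alternatives the LRP1 difference at its 5′ probe stayed positive (0.10 to 0.56, unadjusted p from 0.00231 to 0.212). Their number is not support for the sign. The 2 other filters, the block, the trend and the plain comparison leave the values unchanged, so there it was 0.53 by construction. Without single arrays the sign was nearly fixed, since the treatments did not overlap. It did not pass with normexp background correction (0.10, unadjusted p = 0.212), where the offset of 50 units exceeds the signal of this probe, or with an intensity trend (0.53, unadjusted p = 0.0671). The mean of both LRP1 probes did not pass either (0.19, unadjusted p = 0.323). With the replicate block for the experiment it passed (unadjusted p = 0.00702). Leaving out each array gave 0.50 to 0.56. Scaling to the 75th percentile gave 0.39 and 0.54 in the 2 experiments. The 4 other tested members passed under no alternative. With normexp, MARCO turned to -0.00066 and SCARB1 to 0.0013. Without single arrays CD36 ranged from -0.089 to 0.28, SCARB2 from -0.067 to 0.17, MARCO from -0.11 to 0.13 and SCARB1 from -0.082 to 0.083.

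Member probes past the threshold numbered 0 with normexp and with the trend, 2 without the filter (CD163 was added), and 1 to 2 without single arrays (without control array 2 the LRP1 3′ probe was added, which the filter then admits only through control array 1, where it is highest). Over all probes, 265 passed with normexp, 285 with the trend, 894 with the block, 1029 without the filter, and 713 to 1438 without single arrays. The block changed no other member's call. Of 53 tested list genes, 1 passed with normexp (HP), 1 with the block (MAPK8IP1) and 3 with the plain comparison (APOE, PLAU and PTPN11). These counts are to be read beside those over all probes. In that comparison LRP1 had an unadjusted p = 0.00231, and no probe passed after adjustment. The share of lower probes among those passing was 32.8% with detection required on all 4 arrays and up to 70.1% without single arrays. Where one array of a treatment is left, it is assumed to vary like the others. The mean over all tested probes of a gene was not run, since no member had several. The causes of these changes were not tested.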
